A study of Homo sapiens with 2 samples.

Results

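In a map of nucleosome positions from ARPE-19 cells, 86833 pairs of neighbouring positions lay only 120 to 160 bp apart. Footprints of 150 bp centred on them would overlap or have almost no free DNA between them. These close pairs were chosen by that distance alone, among the 2558468 pairs of neighbours on the 22 autosomes, of which they made up 3.39% (95% Wilson interval 3.37 to 3.42%). They were set against 208316 comparison pairs whose positions lay 175 to 205 bp apart, the ordinary spacing in this map, which made up 8.14% of all neighbours. Of the close and comparison pairs together, 29.4% were close. The distance itself was the basis of the choice and is described here, not tested.

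A nucleosome is a stretch of DNA wound around a core of histone proteins, and the stretch between a nucleosome and the next is the linker, which binds linker histone and is open to nucleases. Linkers differ in length between cell types and along a genome. In promoters and at binding sites of the insulator protein CTCF, nucleosomes often stand in regular rows beside a gap. Neighbours in such a map can lie closer than the histone cores allow when they come from different cells or different copies of a chromosome, or when remodelling enzymes have pushed a nucleosome against the next.

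The study mapped nucleosomes in ARPE-19, an established line of human retinal pigment epithelium, under normal culture and in interphase, the part of the cell cycle outside cell division. The cells carried no genetic change or drug that the labels name. Lysed cells were digested for 5 min with micrococcal nuclease, which cuts linker DNA, and fragments of about 150 bp were recovered from a gel and sequenced. The 2 samples are batches that share line and condition, and the authors deposited 1 list of positions that does not name a batch. The name of the list carries a 2, and whether it holds 1 batch or both is not given.

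Each row of the list was an interval of 1 bp with no score, so a position was counted or not, and the number of reads behind it is unknown. No value per batch, no spread between batches and no test over samples could be given. Differences are therefore stated as the mean ± SD over 22 autosomes with the number of autosomes on which they had the same sign. Chromosomes are not replicates, and these figures describe this list only. The SD holds differences between autosomes as well as counting error, and the intervals given for shares cover counting error only.

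The pairs are easiest to picture from their sequence. Printed here are 3 close pairs exactly 150 bp apart and 1 comparison pair at the commonest comparison distance, 183 bp, from the first position to the second, on the + strand of hg38. They have no other position within 500 bp, and each had the GC content nearest to the median of its location among the pairs that met these limits. For some there was little choice: the FAH pair was the only 1 and the CARD10 pair 1 of 4, with 51% GC over 300 bp against medians of 56% and 54.7%. Capitals mark the bases that lie 75 bp or more from both positions, that is, outside footprints of 150 bp centred on them. In the close pairs this is 1 base, and in the comparison pair it is 34 bases.
Upstream of CARD10, close pair, chr22:37520240-37520390: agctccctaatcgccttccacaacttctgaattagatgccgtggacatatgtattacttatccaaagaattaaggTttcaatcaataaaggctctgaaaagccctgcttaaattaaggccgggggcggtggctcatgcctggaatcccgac
FAH coding exon, close pair, chr15:80158052-80158202: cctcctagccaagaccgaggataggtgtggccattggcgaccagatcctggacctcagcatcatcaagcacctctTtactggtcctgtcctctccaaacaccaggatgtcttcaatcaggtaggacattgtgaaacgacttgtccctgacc
NUDC coding exon, comparison pair, chr1:26945540-26945723: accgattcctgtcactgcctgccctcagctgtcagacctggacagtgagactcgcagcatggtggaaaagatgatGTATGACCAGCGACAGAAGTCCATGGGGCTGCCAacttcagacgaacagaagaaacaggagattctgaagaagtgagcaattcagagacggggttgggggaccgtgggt
Intergenic close pair, chr1:4162387-4162537: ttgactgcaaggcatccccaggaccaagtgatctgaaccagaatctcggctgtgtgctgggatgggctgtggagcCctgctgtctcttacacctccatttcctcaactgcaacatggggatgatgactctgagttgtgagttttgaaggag

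The close pair at CARD10, a gene of a scaffold protein in NF-kappa-B signalling, had its midpoint 900 bp before the start site. The pair in FAH, which encodes the last enzyme of tyrosine breakdown, took in an exon and the edges of the introns beside it, and its midpoint was in coding sequence. NUDC, the gene of the comparison pair, encodes a protein of nuclear movement and cell division. The printed stretches of the close pairs held 45.7 to 53.0% GC and that of the comparison pair 53.8%. These 4 pairs show what the list holds and stand for no average.

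**Figure D1:**
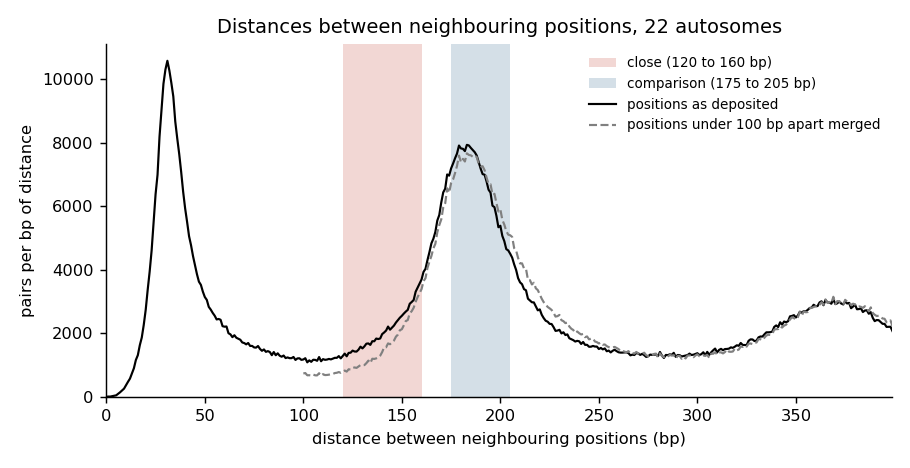
Number of neighbour pairs (vertical axis, pairs per bp of distance) against the distance between neighbouring positions (horizontal axis, bp) on 22 autosomes, for the deposited positions (solid) and after positions under 100 bp apart were merged (dashed), with the close and the comparison range shaded. The close range lies on the rising side of the maximum at 183 bp, beyond the higher one at 31 bp, with 1284 pairs at 120 bp and 3696 at 160 bp, and holds no maximum of its own.

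The close pairs had no preferred distance of their own. Over all neighbours the commonest distance was 31 bp, with 10587 pairs, far below the close range. Among all distances from 60 to 160 bp the rarest was 102 bp, with 1086 pairs, and from there the number of pairs per bp grew, unevenly at first, up to 7938 at 183 bp, the commonest distance of the comparison range. Just outside and just inside the lower limit there were 1210 pairs at 119 bp and 1284 at 120 bp. At the upper limit there were 3696 pairs at 160 bp and 3936 at 161 bp. At the limits of the comparison range there were 6968 pairs at 174 bp, 7196 at 175 bp, 4506 at 205 bp and 4383 at 206 bp. The median distance was 145 bp among the close pairs (quartiles 134 and 154 bp) and 188 bp among the comparison pairs (quartiles 181 and 196 bp). Of the close pairs, 53242 (61.3%) were under 150 bp apart, so that footprints of that length would overlap, and 33591 (38.7%) were 150 to 160 bp apart.

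Close pairs seldom shared a position. They took in 171715 positions, 6.71% of the 2558490 on the autosomes, and 1951 of these positions (1.14%) belonged to 2 close pairs. Of the distances next to a close pair, 2.25% were close, against 3.39% of all neighbour distances. Close distances are rare in the whole list, so few in a row would be found by that share alone. Of the runs of consecutive close distances, 83012 had 1, 1796 had 2, 68 had 3, 5 had 4 and 1 had 5. The longest run had 5 close distances in a row, 6 positions over 654 bp at chr10:41846880-41847534, with a mean distance of 131 bp. It lay in no annotated gene, and 80 positions stood within 5000 bp of it. Of the 5 runs with 4 close distances, the first 4 along the genome lay at chr2:92103160-92103739, where 64 positions stood within 5000 bp, at chr4:24245140-24245657 with 18, at chr14:93873220-93873805 with 29, and at chr5:170354642-170355203 with 40. The run on chromosome 5 was in KCNIP1, a gene of a potassium channel-interacting protein, and the other runs named were in no annotated gene.

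Many close pairs had an extra position beside them. In 32412 close pairs (37.3%, interval 37.0 to 37.6%) an extra position lay less than 60 bp outside the pair, against 34969 comparison pairs (16.8%, interval 16.6 to 16.9%). The difference was 20.7 percentage points ± 2.26 (SD, n = 22 autosomes), with the same sign on 22 of 22. The extra position was a median of 35 bp away, most often 34 bp. From it to the far member of the close pair the distance was a median of 180 bp, and in 62.5% of cases it lay between 175 and 205 bp, the comparison range. That sum follows in part from the choice, since a close distance plus a short step reaches the comparison range. For the comparison pairs the same distance had a median of 222 bp and fell in the comparison range in 9.16%. Extra positions on both sides were found in 4.44% of the close and 0.758% of the comparison pairs. The excess beside close pairs can itself follow in part from the pairing of neighbours. An ordinary spacing with an extra position just inside its end can count as a close pair with an extra position, and not as a comparison pair. How much of the excess arose in this way was not tested.

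Extra positions were not spread evenly over the close range. They were found beside 34.5% of pairs 120 to 127 bp apart (interval 33.6 to 35.4%) and beside 42.3% of pairs 136 to 143 bp apart (interval 41.5 to 43.1%). Among pairs 152 to 160 bp apart the share was 32.8% (interval 32.3 to 33.4%). In the comparison range it fell from 18.2% at 175 to 185 bp to 15.3% at 196 to 205 bp. When positions under 100 bp apart were merged into their midpoint, 2265339 positions were left and the close pairs numbered 67641. When pairs with an extra position within 100 bp were left out, 49307 close and 166047 comparison pairs were left, which are called the pairs without extra positions below.

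The neighbours further out also differed. Among the pairs without extra positions, the next position 100 to 300 bp outside lay at a median of 198 bp ± 2.13 for close pairs and 187 bp ± 0.796 for comparison pairs (SD, n = 22 autosomes). The difference was 10.6 bp ± 2.04 and had the same sign on 22 of 22 autosomes. The commonest outside distance was nearly the same, 188 bp for the close and 184 bp for the comparison pairs. The gap between the medians came with a shoulder of longer distances: 7.30% of the outside distances of close pairs were 210 to 250 bp (interval 7.14 to 7.46%), against 4.72% for comparison pairs (interval 4.64 to 4.79%). Close pairs were less often followed by an ordinary spacing, with 10.2% of outside distances between 175 and 205 bp against 14.8%. They were also less often followed by another close distance, with 2.72% against 3.75%. Over all neighbours, with those under 100 bp apart included, 8.14% of distances were in the comparison range and 3.39% in the close range. Each outside distance starts at a position of the pair, which also sets the distance used for the choice. These differences can therefore follow in part from the choice, and how large that part is was not tested.

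**Figure D2:**
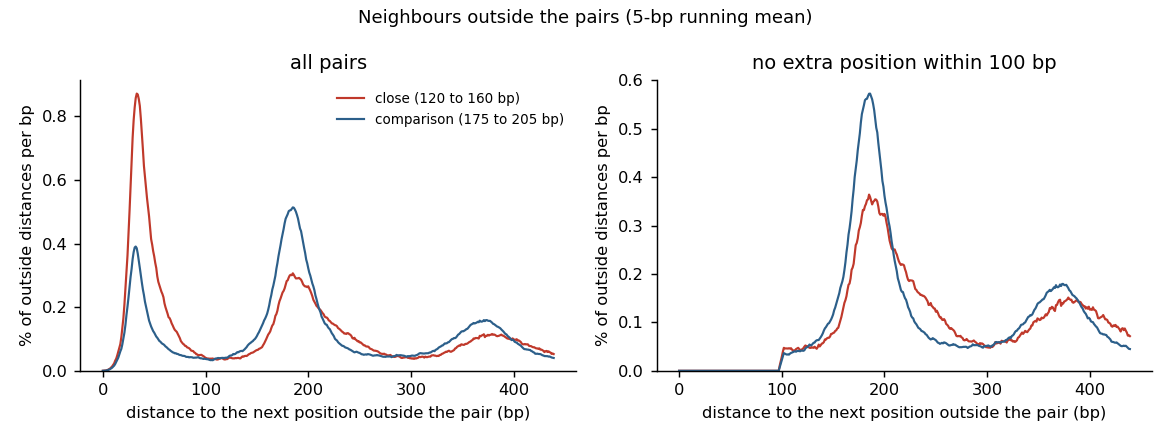
Share of outside distances (vertical axis, % per bp) against the distance from a pair to the next position outside it (horizontal axis, bp; 5-bp running mean), for close and comparison pairs, with all pairs on the left and those with no extra position within 100 bp on the right. Close pairs have the higher maximum of short distances on the left, where 37.3% of them have an extra position under 60 bp, and on the right more distances of 210 to 250 bp than comparison pairs, 7.30% against 4.72%.

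The location of each pair was taken at its midpoint in GENCODE release 44. Within 1000 bp of the start site of a protein-coding gene counted first, then exons, introns and sequence between genes. Close pairs were scarcer than comparison pairs near start sites and had nearly equal shares elsewhere. Near start sites lay 795 close pairs, 0.916% (interval 0.854 to 0.981%), against 2747 comparison pairs, 1.32% (interval 1.27 to 1.37%). The log2 ratio of these shares was -0.55 ± 0.44 (SD, n = 22 autosomes) and was negative on 21 of 22. With the comparison pairs weighted so that their 1000-bp surroundings matched in GC, the log2 ratio was -0.38 ± 0.44. The value was smaller with a window of 200 bp, -0.25 ± 0.72 with 13 of 20 autosomes negative, and with the start sites of all transcripts, -0.17 ± 0.18.

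In the body of genes and between genes both kinds of pairs had nearly the same shares. Exons held 5.90% of the close and 5.92% of the comparison pairs, with a log2 ratio of 0.0083 ± 0.16. Introns held 53.9% and 53.5%, with a log2 ratio of 0.0041 ± 0.044. Sequence between genes held 39.3% and 39.2%, with a log2 ratio of 0.0082 ± 0.062. Among the exons, coding sequence held 1141 close and 2800 comparison pairs, 29.0% of them close. For 3' untranslated exons the counts were 1353 and 3117, with 30.3% close, and for 5' untranslated exons 114 and 337, with 25.3% close. These detailed ratios all varied between autosomes by more than their mean.

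**Figure D3:**
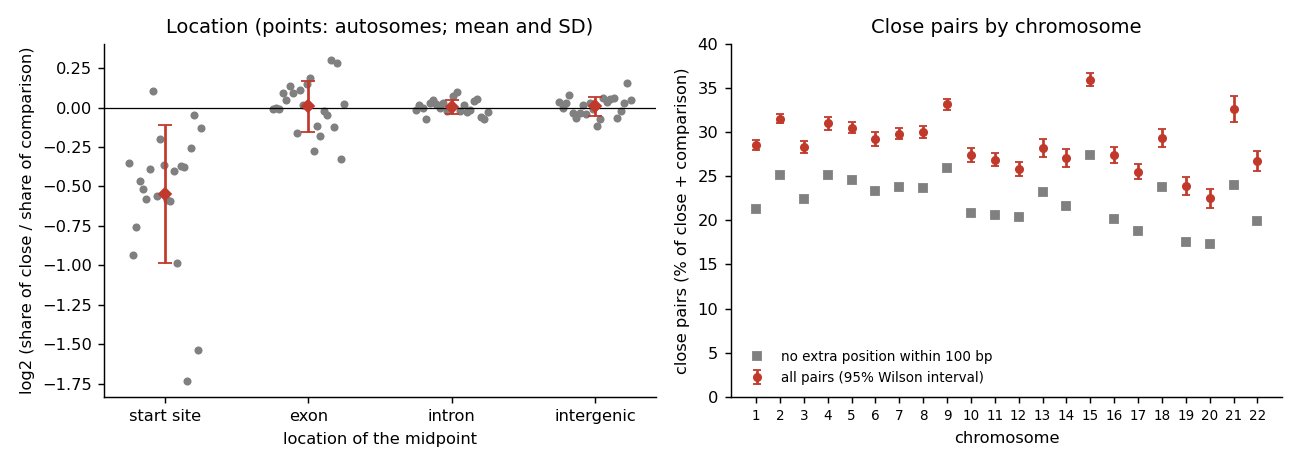
Left, log2 ratio of the share of close pairs to the share of comparison pairs at each location (grey points, 22 autosomes; red, mean and SD): start sites lie at -0.55 ± 0.44 and the other locations near 0. Right, close pairs as a percentage of close plus comparison pairs on each autosome, for all pairs (red, with 95% Wilson intervals) and for pairs with no extra position within 100 bp (grey squares), with chromosome 15 highest and chromosome 20 lowest among all pairs.

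Around start sites the close share of the pairs differed between windows. Over 19111 start sites, the share of close pairs was 28.1% (interval 23.2 to 33.6%) for midpoints from 150 bp before to 50 bp after the start site, where promoters usually have a gap in the nucleosome row. It was 15.4% (interval 12.4 to 18.9%) from 150 to 300 bp after it, 71 close against 391 comparison pairs. In the bin from 200 to 250 bp after the start site there were 29 close and 221 comparison pairs, so that 11.6% were close (interval 8.20 to 16.2%). The comparison pairs peaked there, at 11.6 per 1000 start sites. The close pairs stood at 1.52 per 1000, against 1.10 per 1000 in the bins on either side. The low share there came with more comparison pairs and not with fewer close pairs. From 500 to 150 bp before the start site the share was 19.2% (interval 16.5 to 22.2%), with 138 close and 582 comparison pairs. Between 500 and 1000 bp it was 24.1% before and 23.2% after the start site, so that the share stayed under the 29.4% of all pairs there too.

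**Figure D4:**
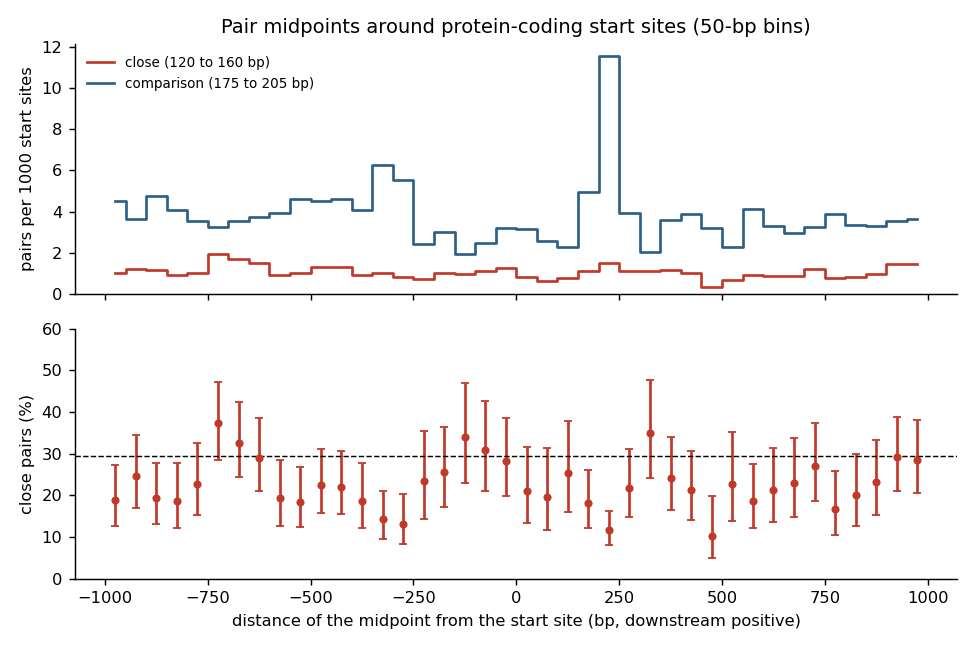
Top, close (red) and comparison (blue) pairs per 1000 protein-coding start sites, by the distance of the pair's midpoint from the start site (bp, 50-bp bins). Bottom, close pairs as a percentage of both in each bin with 95% Wilson intervals, the dashed line marking the 29.4% of all pairs: the comparison pairs peak from 200 to 250 bp after the start site, where the close share is 11.6%.

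CpG islands, stretches rich in CpG that often hold promoters, held a smaller proportion of close pairs than start sites or CTCF matches, 12.1% of the pairs in them. In the 16504 autosomal islands lay the midpoints of 65 close and 473 comparison pairs. That is 0.0749% of the close pairs (interval 0.0587 to 0.0954%) and 0.227% of the comparison pairs (interval 0.208 to 0.248%), with a log2 ratio of -1.62 ± 0.94 that was negative on 18 of 19 autosomes with a value. With weighting by GC content the log2 ratio was -1.15 ± 0.95. Within 300 bp of the 10542 autosomal matches to the CTCF consensus there were 289 close and 1130 comparison pairs, with a log2 ratio of -0.67 ± 0.40, negative on 22 of 22 autosomes. The share of close pairs was lowest 200 to 300 bp from the match, at 16.9% (interval 14.6 to 19.4%). There 157 pairs were close and 773 were comparison pairs, against 63 and 178 at 100 to 200 bp. The low share came with more comparison pairs and not with fewer close pairs. At 500 to 1000 bp 28.0% were close. Binding of CTCF was not measured here.

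GC content differed little over whole pairs and more along them. The 300 bp around the midpoint held 50.2% ± 1.53 GC in close and 50.1% ± 1.66 in comparison pairs (SD, n = 22 autosomes), a difference of 0.108 points ± 0.576. Without extra positions the sign of this difference turned, to -0.416 points ± 0.383, negative on 20 of 22 autosomes, and after merging it was -0.318 points. The 100 bp at the positions held 51.6% ± 1.51 and 52.0% ± 1.67, a difference of -0.449 points ± 0.623, negative on 18 of 22 autosomes. Among pairs without extra positions this difference was -0.759 points ± 0.387 and was negative on 22 of 22. The wider surroundings of 1000 bp were poorer in GC for close pairs, 46.5% against 47.1%, a difference of -0.609 points ± 0.457 with the same sign on 22 of 22 autosomes.

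Between the positions the close pairs had a shallower trough of GC than the comparison pairs. From the positions to the midpoint the GC content differed by 4.53 points ± 0.315 in close and 9.92 points ± 0.490 in comparison pairs. The 20 bp at the midpoint held 47.1% ± 1.53 GC in close pairs and 42.1% ± 1.50 in comparison pairs, a difference of 4.95 points ± 0.559 with the same sign on 22 of 22 autosomes. The midpoint of a close pair lies nearer to its positions, so part of this follows from the choice by distance. At 70 bp inside each position the GC content was 47.0% in close and 46.4% in comparison pairs, a difference of 0.624 points ± 0.601. Among pairs without extra positions it was 46.6% and 46.5%, a difference of 0.128 points ± 0.542, which was within the spread between autosomes. The distance is matched here only to the position measured from. The other position of the pair lies nearer in close pairs, so part of the choice by distance remains.

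The midpoint was also set against the outer sides of the same pairs. In close pairs the midpoint was richer in GC than the sequence equally far outside the positions, by 0.979 points ± 0.414. In comparison pairs it was poorer, at -1.44 points ± 0.330, and the gap between the kinds was 2.41 points ± 0.284, with the same sign on 22 of 22 autosomes. Without extra positions the values were 2.30 points ± 0.456 and -1.07 points ± 0.319. The midpoints of the kinds lie at different distances from the positions, so the sides were compared at 70 bp as well. There the inside was richer than the outside by 0.536 points ± 0.401 in close pairs and poorer in comparison pairs, at -0.483 points ± 0.281, a gap of 1.02 points ± 0.292 with the same sign on 22 of 22 autosomes. Without extra positions the inside was richer in both kinds, by 1.80 points ± 0.523 and 0.271 points ± 0.311, a gap of 1.53 points ± 0.509. The outer flanks of these close pairs were poor in GC: 70 bp outside the positions they held 44.8% ± 1.60, against 46.2% ± 1.92 for comparison pairs, a difference of -1.40 points ± 0.606 on 22 of 22 autosomes. Over all close pairs the outer troughs reached 42.3% at 167 bp from the midpoint, deeper than the 46.7% between their positions. By the choice, a close pair has its other position nearer on the inside. Pairs without extra positions also have none within 100 bp on the outside. The gaps between inside and outside therefore follow in part from the choice, and how large that part is was not tested.

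**Figure D5:**
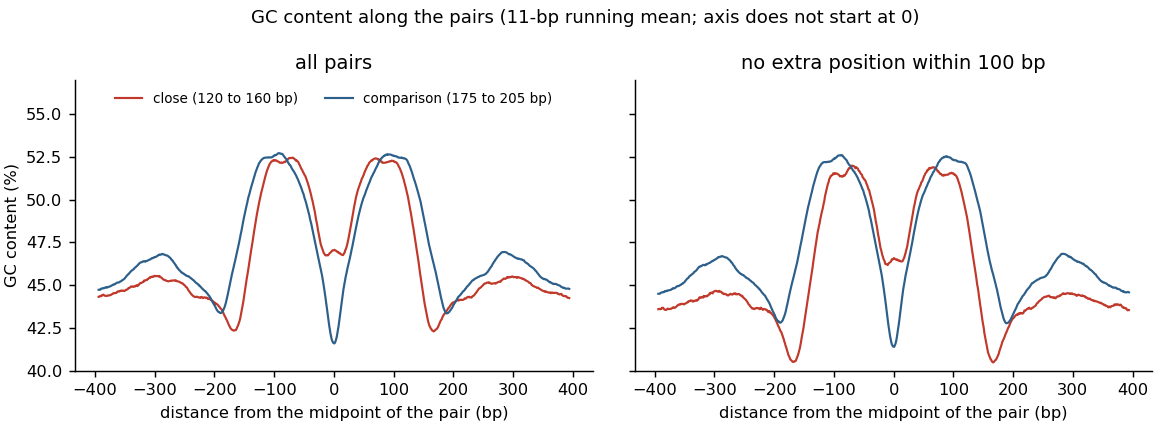
GC content (vertical axis, %, not from 0; 11-bp running mean) against the distance from the midpoint of the pair (horizontal axis, bp), for close (red) and comparison pairs (blue), with all pairs on the left and those with no extra position within 100 bp on the right. On the left the comparison pairs fall to 41.6% between their positions and the close pairs to 46.7%, and the close pairs fall to 42.3% on their outer sides; on the right the close pairs fall to 46.2% and 40.5%.

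The composition changed smoothly with the distance. At the midpoint the GC content was 48.9% for pairs 120 to 127 bp apart, 47.6% at 136 to 143 bp and 45.6% at 152 to 160 bp. It went on down to 42.9% at 175 to 185 bp and 41.1% at 196 to 205 bp. At the positions it varied less, from 50.8% at 120 to 127 bp to 51.7% at 152 to 160 bp. The share of midpoints near start sites was 0.973% at 120 to 127 bp and 0.954% at 152 to 160 bp, against 1.26% at 175 to 185 bp. A CpG within the 40 bp at the midpoint was found in 28.1% of close and 25.2% of comparison pairs. The log2 ratio was 0.16 ± 0.057, with the same sign on 22 of 22 autosomes. As for GC, part of this can follow from the shorter distance to the positions. A CpG began at 0.912% of close midpoints. In comparison pairs it was 0.986% and 0.984% at 22 bp before and after the midpoint, about as far from the nearer position. Runs of 5 A or 5 T, on either strand, were equally common in the 40 bp at the midpoint, 16.0% and 16.1%. Both were under the 20.8% of all windows of 40 bp along the autosomes.

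Repeated words of sequence were compared without a repeat annotation. The 8-base word held by the most close midpoints was AAAATTAG, counted with its reverse complement, in 3.79% of the 40-bp windows of close pairs, 3.46% of those of comparison pairs and 1.09% of windows along the autosomes. Of the 20 commonest words in those windows, 18 were in the top 20 of both kinds. Of the 20 commonest in the 300 bp around close pairs, 13 occurred in the transcripts of BCYRN1 or RN7SL1, noncoding RNA genes related to the Alu family of short mobile elements. Of the 20 commonest in the 40-bp windows, 1 did, and AAAATTAG did not. A pair was counted as repeat-bearing when its 300 bp held at least 3 of the 20 words commonest in that window over both kinds of pairs. This was so for 22% of close pairs (interval 21.7 to 22.3%), 23.6% of comparison pairs and 17.7% of windows along the autosomes. These words and AAAATTAG were picked for being common in the pairs themselves. Shares above those along the autosomes are therefore favoured by the choice. The log2 ratio of close to comparison pairs was -0.085 ± 0.074, negative on 18 of 22 autosomes. Within the close range the share grew with the distance, from 17.9% at 120 to 127 bp to 25.2% at 152 to 160 bp.

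Close pairs were more frequent in GC-poor surroundings. Where the 1000 bp around a pair held under 34% GC, 33.5% of the pairs were close (interval 31.9 to 35.0%). The share was 29.6% at 44 to 46% GC and 24.5% at 58% GC or more (interval 23.9 to 25.1%). The share was also larger in crowded stretches. With fewer than 20 other positions within 5000 bp it was between 27.0 and 28.6%, at 30 to 40 it was 33.9%, at 40 to 50 it was 37.9%, and at 50 or more it was 58.9% (2341 close and 1632 comparison pairs, interval 57.4 to 60.4%). In 1.85% of the close pairs and 0.470% of the comparison pairs the 5000 bp on either side held more positions than footprints of 150 bp that fit side by side. Not all of those positions could be occupied side by side on the sequence of the reference. Leaving out pairs with 40 or more other positions within 5000 bp, 83502 close pairs were left.

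Among the chromosomes the share of close pairs averaged 28.7% ± 3.10 (SD, n = 22 autosomes). It was lowest on chromosome 20, at 22.5% (interval 21.4 to 23.6%), and next lowest on chromosome 19, at 23.9% (interval 22.9 to 24.9%), whose intervals overlap. It was highest on chromosome 15, at 35.9% (interval 35.2 to 36.7%), followed by chromosome 9 at 33.2% (interval 32.5 to 33.8%) and chromosome 21 at 32.6% (interval 31.2 to 34.1%). The intervals of chromosomes 9 and 21 overlap, and that of chromosome 15 lies above both. Without extra positions the share was 22.3% ± 2.69, with chromosome 15 at 27.4%, chromosome 9 at 26.0% and chromosome 20 at 17.3%. Chromosomes with more positions per kb had larger shares, with r = 0.606 (Pearson) and 0.433 (Spearman, n = 22). Those with a higher GC content around their pairs had smaller ones, with r = -0.554 (Pearson) and -0.630 (Spearman). The points share the list and differ in GC content and density together, so these correlations are given as a description with no test.

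At the scale of 1 Mb the spread was wider. Of the 1188 windows with 100 or more pairs, the median had 28.6% close pairs, with quartiles of 25 and 32.3%. The highest was chr2:91000001-92000000, with 103 close and 44 comparison pairs (70.1%, interval 62.2 to 76.9%), beside the centromere. Next came chr6:60000001-61000000 with 59.3%, chr21:10000001-11000000 with 58.9% (344 close and 240 comparison pairs) and chr1:148000001-149000000 with 57.6%. The lowest was chr12:34000001-35000000, with 12 close and 334 comparison pairs (3.47%, interval 1.99 to 5.96%), also beside a centromere. Sequence near centromeres is rich in near-identical copies, where reads are hard to place, and the part this has in the shares was not tested. The windows above the lowest were 4 on chromosome 20, at 38 to 39 Mb (12.6%) and from 61 to 64 Mb (13.2 to 13.7%), followed by 1 to 2 Mb on chromosomes 1, 16 and 19 (14.2 to 14.7%).

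Genes differed in their share of close pairs. Of 19111 protein-coding autosomal genes, 9905 held no close pair, and 113 held 100 or more close and comparison pairs, with a median close share of 29.4% (quartiles 25.9 and 34.1%). The highest share was that of PDE4DIP, which encodes an anchor protein of the centrosome and Golgi, with 148 close and 116 comparison pairs (56.1%, interval 50.03 to 61.9%). It also held 6.23 positions per kb, against 0.928 over all autosomes, and lay mostly in the window of chromosome 1 named above. KANSL1, a subunit of a histone acetyltransferase complex, followed with 43.1% (interval 34.7 to 51.9%), and NRG2, a neuregulin, with 42.9% (interval 33.8 to 52.4%). COL27A1, a fibrillar collagen, had 39.3%, and SLCO3A1, an organic anion transporter, 39.0%. DENND1A, an activator of Rab GTPases, had 38.5%, and CEMIP, which takes part in the breakdown of hyaluronan, 38%. AGBL4, MEGF11, GLI2, ALDH1A2 and NTM lay between 36.4% and 37.3%. Without extra positions GLI2 had 14 close and 57 comparison pairs, 19.7% close, below the median of 22.4% over the 113 genes, and the other 11 genes of the highest 12 had 25% to 51.7%. GLI2 is a transcription factor of Hedgehog signalling and ALDH1A2 makes retinoic acid. From COL27A1 to NTM the lower limits of the intervals were 28.8 to 30.9%, close to the 29.1% of pairs over all protein-coding genes. COL27A1 and DENND1A lay on chromosome 9, where 33.2% of the pairs were close. SLCO3A1, CEMIP, MEGF11 and ALDH1A2 lay on chromosome 15, where 35.9% were. The intervals of these genes included the share of their chromosome.

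The lowest share was that of CACNA2D3, a subunit of voltage-gated calcium channels, which held 21 close and 113 comparison pairs (15.7%, interval 10.5 to 22.8%). KCNQ1, a potassium channel of the heart and epithelia, had 16.7% (interval 11.6 to 23.4%), GSE1 17.3% and RBFOX1, a splicing factor of nerve cells, 17.6% (39 and 183 pairs, interval 13.1 to 23.1%). SHANK2, a scaffold of synapses, had 18.2%, GRIK3, a glutamate receptor, 19.7%, CSMD1 20.3% and CACNA1C, a calcium channel of heart and brain, 21.3%. CAMTA1, a transcription activator, PKNOX2, SDK2 and CTNNA2 had between 22.03 and 22.3%. Without extra positions the shares were 11.9% in CACNA2D3, 14.4% in KCNQ1 and 14.1% in RBFOX1, against 51.7% in PDE4DIP and a median of 22.4% over the 113 genes.

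By close pairs per kb the order was led by genes with crowded positions. GPRIN2 had 1.27 close pairs per kb (19 close and 15 comparison pairs), DUSP22, a phosphatase, 0.820 (49 and 43), SYT15 0.752 (12 and 12), NBPF1 0.624 (32 and 21) and PDE4DIP 0.616. The median over 14325 genes of 10 kb or more was 0.0150. These genes held 9.38, 6.97, 4.95, 7.01 and 6.23 positions per kb. NR5A1, a transcription factor of steroid-making tissue, TNNT2, cardiac troponin T, KCNJ12, a potassium channel, PPP1R1A, a phosphatase inhibitor, and the kinase gene MAP2K3 followed with 0.491 to 0.535 close pairs per kb. They held 3.31 to 6.11 positions per kb. Without extra positions most of these genes kept few pairs of either kind. There were 1 close and 7 comparison pairs in GPRIN2, 1 and 9 in MAP2K3, 2 and 5 in KCNJ12 and 10 and 10 in DUSP22. GPRIN2, NR5A1, PPP1R1A and MAP2K3 then had close shares of 10 to 20%, under the median of 22.4% over the 113 genes. The other genes named had 28.6 to 51.7%.

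Of the gene groups, the HOX genes, which lay down the body axis, had 20 close and 77 comparison pairs over 39 genes (20.6%, interval 13.8 to 29.7%). Without extra positions the share was 10.8% (interval 5.32 to 20.6%), against 22.8% over all protein-coding genes. HOXC4 had 1 close and 13 comparison pairs and HOXB7 3 and 9. The 21 long genes of synapses had 26.6% (453 and 1251 pairs, interval 24.5 to 28.7%), with RBFOX1 at 17.6% and CNTNAP2, a cell adhesion protein, at 33.3% (72 and 144 pairs). The 42 collagens, proteins of the extracellular matrix, had 30.01% (313 and 730 pairs, interval 27.3 to 32.9%), and 34 of them held a close pair. COL23A1 had 36 close and 81 comparison pairs and COL22A1 33 and 80.

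The other groups held fewer pairs. The 78 mitochondrial ribosomal proteins had 34.1% (58 and 112 pairs, interval 27.4 to 41.5%), of which MRPS22 alone gave 26 and 37, and MRPL23 had 2 and 11. The 19 genes of pigment epithelium, the tissue ARPE-19 comes from, had 27 close and 70 comparison pairs (27.8%, interval 19.9 to 37.5%). Of these, MERTK, a receptor for the uptake of photoreceptor debris, had 4 and 18, and LRAT, an enzyme of the visual cycle, had 6 and 8. The 246 zinc finger genes of chromosome 19 had 26.5% (103 and 286 pairs), with 27 and 71 in ZNF536, and the 414 olfactory receptors had 26.3% (61 and 171 pairs). The 82 ribosomal proteins had 14 close and 41 comparison pairs, with 2 and 17 in RPL37A and 2 and 5 in RPL39L. The 20 genes of matrix and cytoskeleton had 12 and 34, with 4 and 9 in ACTB and 1 and 10 in CALD1. The 16 autosomal glycolytic enzymes had 6 and 20, with 1 and 7 in LDHB and 1 and 5 in HK2. The 69 replication-dependent histones had 1 and 5, and the 94 keratin-associated proteins 3 and 4. The intervals of these groups included the 29.1% of all protein-coding genes, except that of the synaptic group, whose upper limit was 28.7%. Without RBFOX1 the synaptic group had 27.9% (interval 25.7 to 30.3%), and without extra positions 21.6% (interval 19.5 to 23.9%), both including the value of all protein-coding genes, 22.8% in the second case. Without MRPS22 the mitochondrial ribosomal proteins had 29.9%.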

How the data were processed

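The labels name 2 batches of interphase ARPE-19 cells. The list that the authors deposited holds positions, 1 bp each, without a score, and its name carries a 2 of unstated meaning. Per the submitters' processing notes, Bowtie2 and the build hg38 (GRCh38) were used. The caller, its threshold, the fragment filter and the pooling of batches are not given in the sources used here, so positions of different batches cannot be told apart. On the autosomes, 2558494 rows gave 2558490 distinct positions. All lay within the hg38 reference used here and none on an undetermined base.

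Positions were sorted, and neighbours 120 to 160 bp apart and 175 to 205 bp apart were paired. Midpoints were placed in GENCODE 44, each protein-coding gene having 1 start site. CpG islands were found as segments scored +17 at each CpG and -1 elsewhere (over 500 bp, at least 55% GC, observed to expected CpG over 0.65). CTCF sites were matches to a consensus on either strand, and the pair was counted by its midpoint. Genes are described by rule: with 100 or more pairs, the 12 highest and 12 lowest close shares; among those of 10 kb or more, the 10 with the most close pairs per kb; and 12 gene groups. Some sequences chosen for printing are not reported here. A pair within overlapping genes counts in each. Intervals are 95% Wilson intervals. No test over samples was possible with 1 list. The members, lists and rules were chosen with earlier results of these data known. Alternatives were merging of near positions, narrower limits, weighting by GC content or density, other windows, and leaving out chromosomes, crowded pairs or repeat-bearing pairs. Calculations used Python 3.11.15 with numpy 2.4.6, pandas 2.3.3 and numba 0.67.0, tested on simulated positions.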

Additional observations from a re-analysis of the deposited data

Results flagged for a closer look

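Close pairs were also counted on sequences that the comparisons above did not use. Chromosome X held 1524 close and 3314 comparison pairs, 31.5% close (95% Wilson interval 30.2 to 32.8%), within the range of the autosomes. The 12 unplaced and alternate sequences held 1388 positions, 92 close and 104 comparison pairs, 46.9% close (interval 40.1 to 53.9%), above the 35.9% of chromosome 15. Both counts exceed the 3 that a count of 0 would allow, which does not show whether close pairs are unusual there. There is no control sample to set the counts against.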

How the results depend on the processing

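Of 76 alternatives to 10 results, 68 moved the value by less than the spread between autosomes (or, for the number of close pairs, by less than 1.5 times), and 8 moved it by more. The sign changed in 12 of the 76, and in each case the value as reported was smaller than its spread: 3 of 9 for exons, 2 of 9 for introns, 4 of 9 for sequence between genes and 3 of 7 for the GC content of the pair, which ranged from -0.416 to 0.312 points. The number of close pairs was 41732 with limits of 130 to 150 bp and 49307 without pairs that had an extra position within 100 bp. The mean share of close pairs over autosomes, 28.7%, was 23.8% after merging, 21.5% with the narrower limits and 22.3% without extra positions. The excess of extra positions was 24.7 points with the narrower limits. The difference in GC content at the midpoint was 3.58 points over 40 bp and 4.19 points without repeat-bearing pairs. The spread of the ratio at start sites is wide enough that its smaller values with a window of 200 bp or all transcripts, given above, count as within it. The ratios at CpG islands ranged from -1.71 to -1.05 and those at CTCF matches from -0.89 to -0.60 over 8 alternatives each. The causes were not tested. The exclusion of crowded or repeat-bearing pairs and the island and CTCF counts were chosen after the data were seen, as were the gene groups without RBFOX1 or MRPS22. After merging, no extra position within 60 bp is possible, so that result has no value there.

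No paired analysis was possible because the list does not name a batch, and for the same reason no batch was left out. Read depth is unknown. A missing position cannot be told from too few reads.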
